A study of Mus musculus with 2 samples.

Results

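Superantigens encoded by endogenous mouse mammary tumour proviruses bind the side of the TCRβ chain together with MHC class II, so the V gene, and not the CDR3, sets which T cells they engage. In strains that carry such a provirus, thymocytes using a reactive V gene are deleted or made unresponsive. The V genes described here are TRBV12-1 (the older name is Vβ5.2), TRBV12-2 (Vβ5.1), TRBV15 (Vβ12), TRBV16 (Vβ11) and TRBV26 (Vβ3). Vβ5, Vβ11 and Vβ12 are known for deletion that needs the class II molecule I-E, which C57BL/6 and NOD mice lack, and Vβ3 is known for deletion by a provirus that NOD mice carry.

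A clonotype, a set of reads with the same CDR3, was assigned to one of the 5 genes when that gene was listed first among its V genes. They held 316 of the 1640 TRBV clonotypes of the thymus library and 395 of the 2241 TRBV clonotypes of the spleen library. In all, 7732 and 11826 clonotypes of both chains were listed in 2700370 and 4585403 reads, of which 1782199 and 2765086 reads were TRBV.

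The study made T cells (iT cells) from C57BL/6 CD45.2 mouse embryonic stem cells in which doxycycline induces Runx1 and Hoxa9 from the Rosa26 locus. The induced progenitors were given to irradiated B-NDG mice, an NOD strain with the Scid mutation and without Il2rg that makes no T or B cells of its own. CD4 and CD8 single-positive iT cells were sorted at week 6, 15000 per library, into 1 library from the thymus and 1 from the spleen. The methods list CD62L+ CD44-, the naïve phenotype, in the spleen gate only, while the study's account of the experiment names naïve cells for both tissues. The cells of both libraries thus carry C57BL/6 V genes and matured in an NOD host, and the number of mice behind a library was not stated. Transcripts were amplified with a kit for mouse TCRα and TCRβ and sequenced as paired reads of 250 cycles. Among all clonotypes of both chains with a C gene, TRAC and TRBC2 were the first listed, and no TRDC, TRGC, IGHM or IGKC was found. Because the kit is for TCRα and TCRβ, the absence of the others does not show which cells were present. TRBC1 was never listed first, but it was listed as a further C gene in 37 TRBV clonotypes of the thymus and 34 of the spleen. In the thymus 314 of the 316 clonotypes of the 5 genes had TRBC2 listed first and 2 had no C gene. In the spleen 393 of 395 had it listed first. Whether the reads tell TRBC1 from TRBC2 was not tested.

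With 1 library per tissue, tests compare the clonotypes of these libraries and not the tissues, and if the gates differed, gate and tissue cannot be told apart. No molecular identifiers were stated, so the Wilson 95% intervals of shares cover counting error only.

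The 5 genes lie on the plus strand of chromosome 6 in GRCm38, each with a leader exon and a V exon. TRBV12-1 spans chr6:41113550-41114067, TRBV12-2 chr6:41118851-41119364, TRBV15 chr6:41141188-41141658, TRBV16 chr6:41151740-41152230 and TRBV26 chr6:41227505-41227993. Their germline V exons end as follows in GENCODE transcripts, shown because the CDR3 begins here. Capitals mark the part inside the CDR3, from the conserved cysteine codon to the end of the exon.
TRBV12-1: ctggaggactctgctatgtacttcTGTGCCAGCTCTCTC
TRBV12-2: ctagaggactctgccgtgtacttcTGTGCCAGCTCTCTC
TRBV15: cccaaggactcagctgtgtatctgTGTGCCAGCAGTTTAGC
TRBV16: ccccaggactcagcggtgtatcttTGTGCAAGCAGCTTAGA
TRBV26: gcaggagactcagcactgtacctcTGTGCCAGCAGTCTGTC
TRBV12-1 and TRBV12-2 ended in the same 15 bases, so their CDR3s alone do not tell them apart. Their transcripts were identical at 340 of 385 aligned bases (88.3%), the closest pair of the 5. The other pairs were identical at 66.3% to 76.2% of aligned bases.

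The clonotypes with the most reads show how these genes were joined. Capitals mark the bases between the aligned V and J ends, which hold the D segment and the added nucleotides.
TRBV26-TRBJ1-2, productive, most reads of the gene in the thymus: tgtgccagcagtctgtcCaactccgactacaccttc
TRBV16-TRBJ1-3, productive, most reads of the gene in the spleen: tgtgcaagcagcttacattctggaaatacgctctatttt
TRBV16-TRBD1-TRBJ1-5, productive, most reads of the gene in the thymus: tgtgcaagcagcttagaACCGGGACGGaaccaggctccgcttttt
TRBV15-TRBD1-TRBJ1-5, out of frame, most reads out of frame of the gene in both libraries: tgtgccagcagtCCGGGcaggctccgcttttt
TRBV12-1-TRBD2-TRBJ2-1, productive, most reads of the gene in the thymus: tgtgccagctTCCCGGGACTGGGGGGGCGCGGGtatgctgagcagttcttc
TRBV12-2-TRBD2-TRBJ2-4, productive, most reads of the gene in the thymus: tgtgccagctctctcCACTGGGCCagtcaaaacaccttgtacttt
The TRBV26-TRBJ1-2 junction held 1 base between V and J. The TRBV16-TRBJ1-3 junction held 0 as aligned, but its aligned V end differs from the germline end above at 1 base. The TRBV12-1 junction held 23, of which most are G.

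A group of TRBV16 clonotypes did not look like these. Their CDR3s carried the 20-base run AGCAGTGGTATCAACGCAGA, which was the most frequent 20-base word among clonotypes whose V alignment score was below 100. It extended to AAGCAGTGGTATCAACGCAGAGTACGGG in 156 of the 159 TRBV clonotypes of both libraries that carried it. As background, these letters are those of the oligonucleotide that SMART cDNA kits add to the end of the first strand, and the run was found in 0 of the 141767 GENCODE transcripts. Of these clonotypes, chosen for display after their values were seen, the first shown had 5 thymus reads and 4 spleen reads, and the second had 7 reads in the spleen and 2 in the thymus, listed there under TRBV13-1. The third had 1 read, in the thymus. Capitals mark the run.
TRBV16-TRBJ2-3, out of frame: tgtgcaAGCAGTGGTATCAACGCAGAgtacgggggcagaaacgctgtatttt
TRBV16-TRBJ2-3, productive: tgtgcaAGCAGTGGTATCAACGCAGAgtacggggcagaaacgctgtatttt
TRBV16-TRBD2-TRBJ2-3, with a stop codon: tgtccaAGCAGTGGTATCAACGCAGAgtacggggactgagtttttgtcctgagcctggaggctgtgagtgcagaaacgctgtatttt
The run stood where the V gene should continue. The end of the TRBV16 exon shares the 6 letters AAGCAG with the extended run. The last 30 bases of other TRBV genes also share up to 7 letters with it, among them TRBV13-3, of which no clonotype carried the run. The part of these letters in the V assignment was not tested.

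In the thymus, 56 of 155 TRBV16 clonotypes (36.1%, interval 29.0% to 43.9%) carried the run. In the spleen, 51 of 213 did (23.9%, interval 18.7% to 30.1%). TRBV15 had 0 in the thymus and 2 in the spleen, and TRBV12-1, TRBV12-2 and TRBV26 had 0 in either. All other TRBV genes together had 22 of 1324 in the thymus (1.66%) and 28 of 1846 in the spleen (1.52%). The run was not particular to TRBV16. TRBV23 carried it in 7 of 11 clonotypes in the thymus (63.6%) and 9 of 16 in the spleen (56.2%), and TRBV8 in 4 of 5 and 6 of 8. TRBV13-1 carried it in 7 of 86 and 10 of 113.

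The run-carrying clonotypes of TRBV16 had V alignment scores of 26 to 65 in the thymus and 16.3 to 65 in the spleen, against medians of 1079 and 1067 for the remaining TRBV16 clonotypes. They were small, with at most 5 reads each in the thymus library and 7 in the spleen library, and 41 and 35 of them had a single read. Together they held 84 of the 24406 TRBV16 reads of the thymus (0.344%) and 84 of the 45426 of the spleen (0.185%). TRBJ2-3 was their J gene in 30 of 56 and 34 of 51. They were mostly not productive: 36 of 56 and 36 of 51 were out of frame or held a stop codon. They made up 67.9% of the non-productive TRBV16 clonotypes in the thymus and 54.5% in the spleen. The run was not restricted to 1 library, since 23 TRBV CDR3s with the run were found in both. The main comparisons below are therefore given with and without clonotypes that carry it, an alternative chosen after the data were seen.

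**Figure D1:**
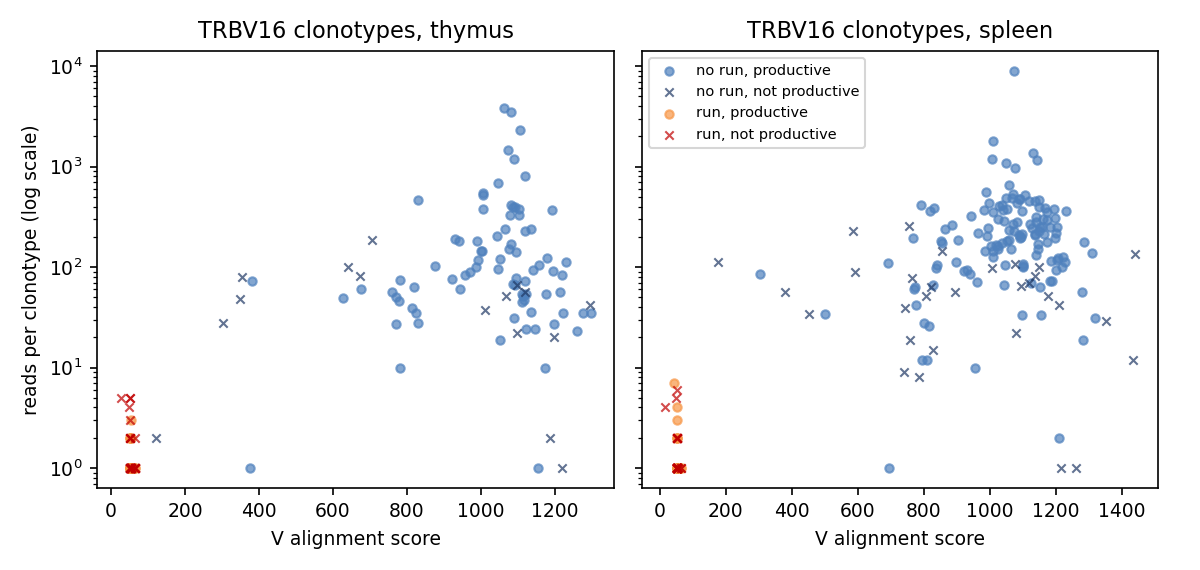
Each point is a TRBV16 clonotype, with its V alignment score (horizontal) and its reads on a log scale (vertical), in the thymus (left) and the spleen (right). Clonotypes with the run sit below a score of 100 and at 7 reads or fewer, while nearly all others lie above both.

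The first comparison asks whether junctions of the 5 genes that can make a protein are under-represented against those that cannot. A true rearrangement that is out of frame or has a stop codon makes no receptor chain and is not exposed to superantigen. It is carried by cells that were selected through the chain of the other allele. Non-productive clonotypes counted here also include run-carrying ones, and insertion or deletion errors were not removed. A productive clonotype had a CDR3 without a frameshift or stop codon, and all others were counted as not productive. The other TRBV genes include the pseudogenes TRBV8, TRBV22, TRBV24 and TRBV28, whose junctions were counted by the same rule.

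In the thymus library, no difference in productive share between the 5 genes and other TRBV genes passed the test. Of 316 clonotypes, 224 were productive (70.9%, interval 65.7% to 75.6%), against 969 of 1324 for the other genes (73.2%, interval 70.7% to 75.5%). The odds ratio was 0.89 (exact 95% interval 0.68 to 1.18, Fisher's exact test, two-sided, p = 0.44). Without run-carrying clonotypes the shares were 78.5% (204 of 260) and 73.9% (962 of 1302), with an odds ratio of 1.29 (0.93 to 1.81, p = 0.14, same exact test), so the direction turned.

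In the spleen library, 279 of 395 clonotypes of the 5 genes were productive (70.6%, interval 66.0% to 74.9%), against 1427 of 1846 (77.3%, interval 75.3% to 79.2%). This difference of -6.67 percentage points passed the test, with an odds ratio of 0.71 (0.55 to 0.91, Fisher's exact test, two-sided, p = 0.0062). It was not found without run-carrying clonotypes, where the shares were 76.9% (263 of 342) and 78.2% (1422 of 1818). The odds ratio was then 0.93 (0.70 to 1.24, p = 0.62, same exact test). Leaving out TRBV16 as a whole instead gave 0.78 (0.55 to 1.12, p = 0.17, same exact test). The comparison genes include some that other superantigens bind: with TRBV19, TRBV29, TRBV13-3 and TRBV17 left out, the odds ratios over all clonotypes were 0.93 for thymus and 0.71 for spleen. With the pseudogenes left out they were 0.84 (0.63 to 1.12) for thymus and 0.64 (0.50 to 0.83, p = 0.00052, same exact test) for spleen. TRBV16 clonotypes with the run were still counted there.

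The frame contrast was not shown to differ between the libraries. The ratio of the thymus to the spleen odds ratio was 1.26 (95% interval 0.88 to 1.82), and Zelen's exact test of equal odds ratios gave p = 0.23. Without run-carrying clonotypes it was 1.39 (0.91 to 2.12, p = 0.14, same exact test).

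**Figure D2:**
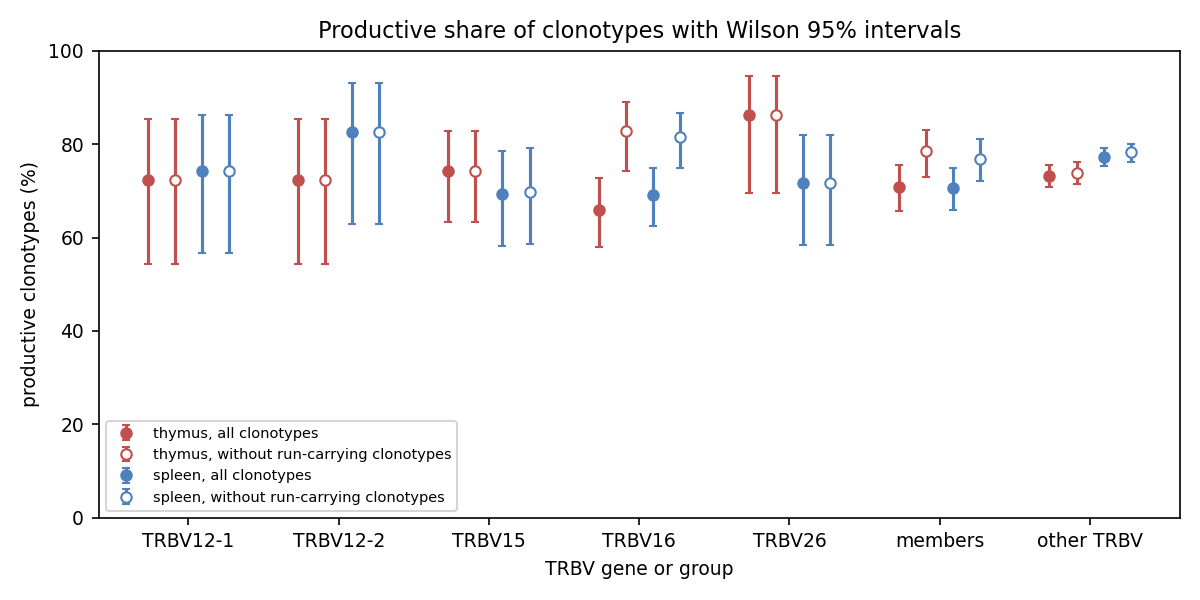
Productive clonotypes as a percentage of all clonotypes of a gene, or of the 5 genes (members) and all other TRBV genes, in the thymus (red) and the spleen (blue). Filled points are all clonotypes, open points leave out those with the run, and bars are Wilson 95% intervals. Only TRBV16, and the 5 genes with it, move visibly between filled and open points.

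TRBV16 was the largest of the 5 genes by clonotypes. It had 102 productive, 49 out-of-frame and 4 stop-containing clonotypes in the thymus, and the spleen counts were 147, 65 and 1. Its productive share was 65.8% (interval 58.0% to 72.8%) and 69.0% (62.5% to 74.8%). Without run-carrying clonotypes the shares were 82.8% (74.2% to 89.0%) and 81.5% (74.8% to 86.7%), from 82 of 99 and 132 of 162.

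TRBV15 had 55 productive, 18 out-of-frame and 1 stop-containing clonotypes in the thymus, and the spleen counts were 52, 23 and 0. Its productive share was 74.3% (63.3% to 82.9%) and 69.3% (58.2% to 78.6%). These intervals overlap for the most part.

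TRBV26 had 25 productive and 4 out-of-frame clonotypes in the thymus, and 38 productive, 14 out-of-frame and 1 stop-containing in the spleen. Its productive share was 86.2% (69.4% to 94.5%) in the thymus, the highest of the 5 there, and 71.7% (58.4% to 82.0%) in the spleen. For TRBV26 the ratio of odds ratios between the libraries was 3.0 (0.88 to 10.2, Zelen's exact test, p = 0.10, not adjusted). The same test was run on 22 TRBV genes. TRBV26 had the smallest p of them, and no gene passed after adjustment.

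TRBV12-1 and TRBV12-2 each had 21 of 29 clonotypes productive in the thymus (72.4%, 54.3% to 85.3%). In the spleen TRBV12-1 had 23 of 31 (74.2%, 56.8% to 86.3%) and TRBV12-2 had 19 of 23 (82.6%, 62.9% to 93.0%). These intervals were the widest of the 5 genes and held the productive share of the other TRBV genes in both libraries.

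Each TRBV gene with at least 10 clonotypes in both libraries was then compared with all other TRBV genes. In the thymus 6 of 22 genes passed (27.3%), and in the spleen 7 of 22 (31.8%), at an adjusted p under 0.05 (Fisher's exact test, Benjamini-Hochberg over both libraries). Of the 5 genes described here, 0 passed in the thymus and 1, TRBV16, in the spleen, with an odds ratio of 0.67 (0.49 to 0.93, adjusted p = 0.047 by the same exact test). In the thymus TRBV16 had an odds ratio of 0.70 (adjusted p = 0.10, same exact test) and was the only 1 of the 5 with an unadjusted p under 0.05. The share of the 5 genes that passed was thus not above the share of all genes in either library.

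Without run-carrying clonotypes, 6 of 21 genes passed in each library (28.6%), and 0 of the 5, with 0 also at an unadjusted p under 0.05. TRBV16 then lay on the other side of 1, with an odds ratio of 1.69 (0.98 to 3.07) in the thymus and 1.26 (0.83 to 1.97) in the spleen, at adjusted p = 0.17 and 0.57 (Fisher's exact test, Benjamini-Hochberg). TRBV26 had 2.15 (0.73 to 8.54) and 0.71 (0.38 to 1.40), TRBV15 0.98 (0.57 to 1.78) and 0.64 (0.38 to 1.13), TRBV12-1 0.89 and 0.81, and TRBV12-2 0.89 and 1.34, with intervals that all held 1.

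Among the 14 other TRBV genes with at least 20 clonotypes in both libraries, the productive share was nearest to that of the 5 genes for TRBV31 (mean absolute difference 5.91 percentage points over both libraries), TRBV19 (6.54) and TRBV5 (7.34). Without run-carrying clonotypes the order was TRBV19 (0.384), TRBV3 (0.936) and TRBV5 (1.28). TRBV31 then lay 12.8 percentage points away, so the nearest gene depended on the run-carrying clonotypes.

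The second comparison sets the thymus against the spleen. The 5 genes made up 18.8% of productive TRBV clonotypes in the thymus (224 of 1193, interval 16.7% to 21.1%) and 16.4% in the spleen (279 of 1706, interval 14.7% to 18.2%). The odds ratio was 1.18 (0.97 to 1.44, Fisher's exact test, two-sided, p = 0.091). Of non-productive TRBV clonotypes they made up 20.6% (92 of 447) and 21.7% (116 of 535), with an odds ratio of 0.94 (0.68 to 1.29, p = 0.70, same exact test). Neither difference passed the test.

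Without run-carrying clonotypes, the shares of productive clonotypes were 17.5% (204 of 1166) and 15.6% (263 of 1685), with an odds ratio of 1.15 (0.93 to 1.41, p = 0.18, exact). The shares of non-productive clonotypes were 14.1% (56 of 396) and 16.6% (79 of 475), with an odds ratio of 0.83 (0.56 to 1.22, p = 0.35, exact). The productive comparison depended on TRBV16: with that gene left out, the other 4 genes were more frequent in the thymus (odds ratio 1.36, 1.04 to 1.78, p = 0.022, exact, not adjusted). This was 1 of 2 alternatives of 18 that passed. The other, leaving out run-carrying clonotypes as well, gave 1.38 (1.05 to 1.80, p = 0.019, exact).

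**Figure D3:**
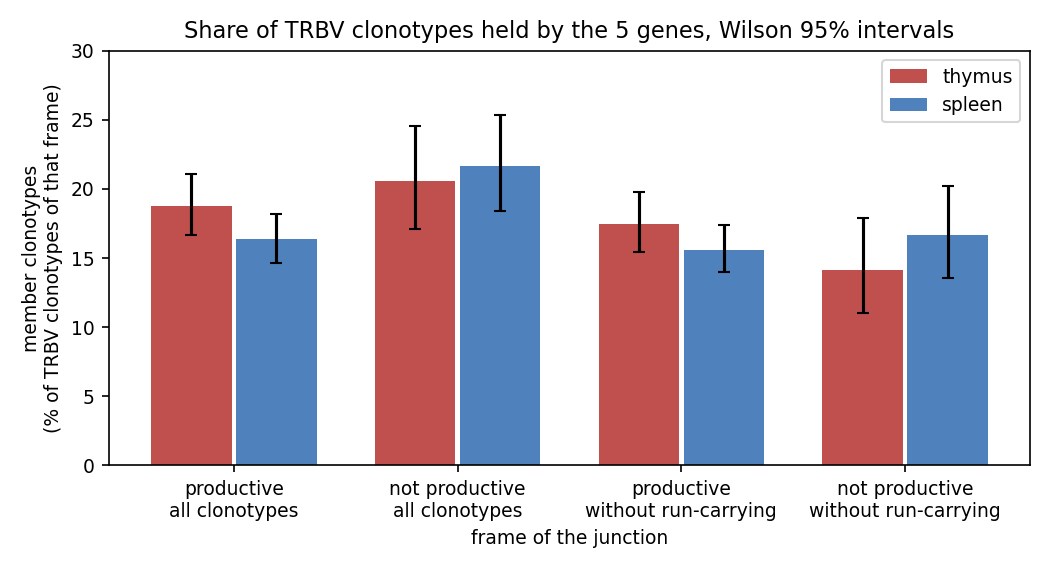
Clonotypes of the 5 genes as a percentage of TRBV clonotypes, separately for productive and non-productive junctions, in the thymus (red) and the spleen (blue), with Wilson 95% intervals as bars. The intervals of the 2 tissues overlap in every pair, and the non-productive bars are lower on the right, where run-carrying clonotypes are left out.

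Gene by gene, the share of productive TRBV clonotypes of TRBV16 was 8.55% in thymus and 8.62% in spleen, and that of TRBV15 was 4.61% (3.56% to 5.95%) and 3.05% (2.33% to 3.98%). The TRBV26 share was 25 of 1193 in the thymus and 38 of 1706 (2.23%) in the spleen. TRBV12-1 held 1.76% and 1.35%, and TRBV12-2 held 1.76% and 1.11%. TRBV16 stood above TRBV15 with no overlap of intervals in either library. Without run-carrying clonotypes TRBV16 held 7.03% (5.70% to 8.65%) and 7.83% (6.64% to 9.21%), and TRBV15 held 4.72% (3.64% to 6.09%) and 3.03% (2.31% to 3.96%), so their thymus intervals then overlapped. Over all clonotypes, TRBV15 stood above TRBV26 in the thymus, but their intervals overlapped in the spleen. TRBV26, TRBV12-1 and TRBV12-2 had overlapping intervals in each library and could not be ordered.

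By reads the 5 genes were a much smaller part of the libraries. Their share of TRBV reads came to 4.02% for the thymus library (71583 reads) and 2.91% for the spleen library (80465 reads). A single productive clonotype of another gene held 26.7% of TRBV reads of the thymus (TRBV19) and 56.2% of those of the spleen (TRBV13-3). With that clonotype left out of each total, the 5 genes held 5.48% and 6.64%, so the direction between the libraries turned.

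TRBV16 held 1.37% of TRBV reads of the thymus and 1.64% of those of the spleen, TRBV15 held 1.32% and 0.500%, and TRBV26 held 0.640% and 0.540%. TRBV12-1 held 0.499% and 0.152%, and TRBV12-2 held 0.187% and 0.0753%. The largest clonotype held between 7.48% (TRBV15 in the spleen) and 41.6% of the reads of a gene. The TRBV26-TRBJ1-2 clonotype shown above was the one with 41.6%, in the thymus. For TRBV16 the largest clonotype held 15.7% in the thymus and 19.9% in the spleen.

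Productive clonotypes of the 5 genes were represented by more reads than non-productive ones, as were those of other genes. Without run-carrying clonotypes, their medians in the thymus were 99.0 reads (productive) and 48.5 reads (not productive), against 114.5 and 51.0 for other TRBV genes. In the spleen the medians were 163 and 55.0 for the 5 genes and 160 and 51.5 for the others. With run-carrying clonotypes the non-productive median of the 5 genes was 19.0 for thymus and 28.5 for spleen, and that of TRBV16 alone was 1 and 2.

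Not every non-productive clonotype was rare. The out-of-frame TRBV15-TRBD1-TRBJ1-5 clonotype shown above had 4594 reads in the thymus, where it ranked 22 among all TRBV clonotypes, and 817 in the spleen, where it ranked 93. It held 19.5% of TRBV15 reads in the thymus. Productive clonotypes accordingly held 73.6% of TRBV15 reads there, below the 84.1% to 99.1% of the other 4 genes.

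TRBJ1-2 was the most frequent J gene of TRBV26. Of its clonotypes, 12 of 29 in the thymus (41.4%, interval 25.5% to 59.3%) and 22 of 53 in the spleen (41.5%, interval 29.3% to 54.9%) used TRBJ1-2. Without run-carrying clonotypes, TRBJ1-2 was used by 22.1% (19.9% to 24.5%) and 17.6% (15.9% to 19.4%) of the other TRBV genes. The intervals did not overlap in either library. TRBJ1-2 was picked here as the highest J gene, and some TRBV26-TRBJ1-2 CDR3s were found in both libraries. The libraries are therefore not independent for this comparison. The TRBJ1 cluster as a whole was used by 62.1% (44.0% to 77.3%) and 62.3% (48.8% to 74.1%) of TRBV26 clonotypes, against 35.8% and 39.3% for the other TRBV genes. The other 4 genes used TRBJ1 in 27.6% to 38.4% of clonotypes in the thymus and 35.6% to 39.1% in the spleen. No test of J gene use was made.

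TRBD1 lies before both J clusters and TRBD2 lies after the first, so TRBJ1 genes are joined to TRBD1. Run-carrying clonotypes are left out of the D gene counts that follow. Of clonotypes of the 5 genes with a D gene and a TRBJ1 gene, 47 of 51 and 68 of 72 were assigned TRBD1. TRBV26 clonotypes with a D gene carried TRBD1 in 14 of 17 and 21 of 26. TRBV12-1 carried it in 5 of 21 and 5 of 19, and TRBV15 in 16 of 58 and 26 of 60. For TRBV16 this was 30 of 70 and 56 of 116, and for TRBV12-2 3 of 17 and 6 of 12. Other TRBV genes with a D gene carried TRBD1 in 42.5% and 57.7%. A D gene was found in 58.6% of TRBV26 clonotypes in the thymus and 49.1% in the spleen, against 68.3% and 69.5% for other TRBV genes, and in 78.4% and 82.2% of TRBV15 clonotypes.

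The use of TRBJ2-3 by TRBV16 depended on the run-carrying clonotypes. It was 40 of 155 and 56 of 213 over all clonotypes, and 10 of 99 and 22 of 162 without run-carrying ones. Other TRBV genes used TRBJ2-3 in 84 of 1302 and 180 of 1818 without the run.

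**Figure D4:**
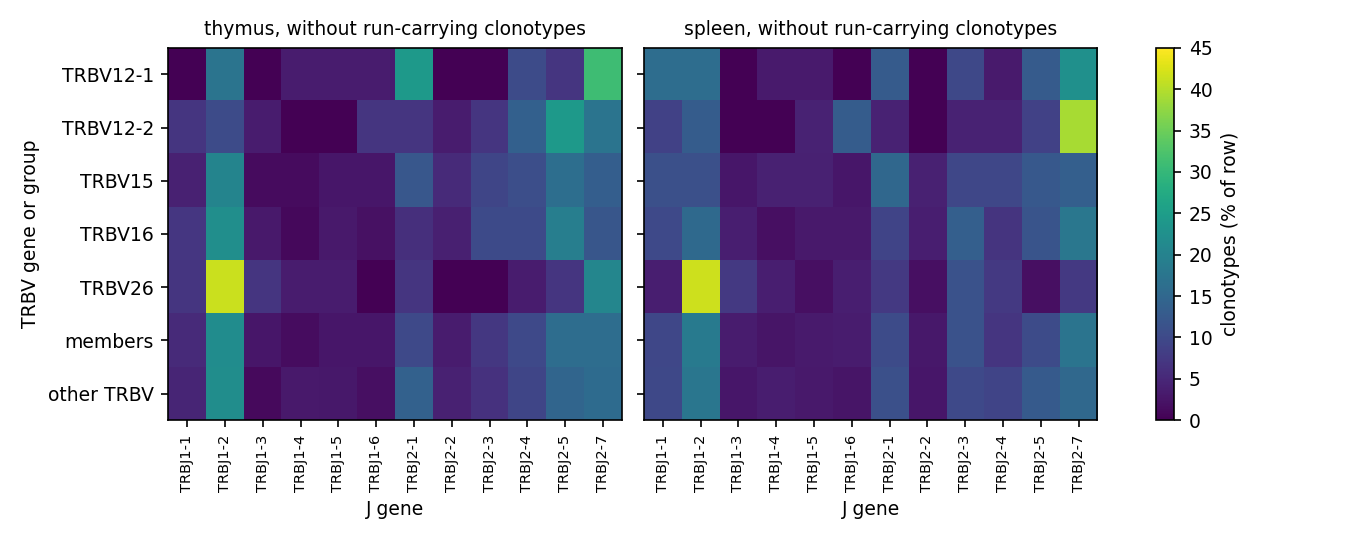
Colour gives the percentage of clonotypes of each TRBV gene or group (rows) that use each J gene (columns), in the thymus (left) and the spleen (right), without run-carrying clonotypes. The TRBJ1-2 column is brightest for TRBV26 in both libraries, at 41.4% and 41.5%, and TRBV12-2 is brightest for TRBJ2-7 in the spleen, from 9 of 23 clonotypes.

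The V end was trimmed most in TRBV15. Without run-carrying clonotypes, the median number of bases removed from productive V ends was 4 for TRBV15 in both libraries, against 0 to 2.50 for the other 4 genes and 2 for all other TRBV genes. An untrimmed V end was found in 7 of 74 TRBV15 clonotypes in the thymus (9.46%, interval 4.66% to 18.3%) and 4 of 73 in the spleen (5.48%, interval 2.15% to 13.3%), whether productive or not. In other TRBV genes it was found in 30.1% (27.7% to 32.7%) and 34.5% (32.3% to 36.7%). TRBV12-2 lay at the other end, with 14 of 29 (48.3%) and 14 of 23 (60.9%).

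Productive CDR3s of the 5 genes had a median length of 42 bases in both libraries, as did those of other TRBV genes. TRBV26 had a median of 39 bases in the thymus and 40.5 in the spleen, and TRBV12-1 had 42 and 39. Productive TRBV26 junctions held a median of 7 and 5.50 bases between V and J, against 9 and 8 for other TRBV genes. These differences were not tested.

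The libraries shared some clonotypes of the 5 genes. Without run-carrying clonotypes, 61 CDR3s assigned to them in the thymus were also found in the spleen, 54 productive and 7 not. Of these, 59 had the same V gene in both libraries. This was 26.5% of the productive clonotypes of the 5 genes in the thymus, against 25.9% for other TRBV genes. In the spleen it was 20.2% for the 5 genes and 17.6% for the others. The shared clonotypes held 57.4% of the reads of the 5 genes in the thymus and 43.5% in the spleen. TRBV26 shared the highest part of its productive clonotypes in the thymus, 11 of 25 (44.0%). Of non-productive thymus clonotypes, the 5 genes shared 7 of 56 (12.5%), against 56 of 340 (16.5%) for other TRBV genes. Among the 5, TRBV12-1 shared 3 of 8 and TRBV15 4 of 19. TRBV26 shared 0 of 4, TRBV12-2 0 of 8 and TRBV16 0 of 17.

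The clonotype with the most reads over both libraries, TRBV16-TRBJ1-3, had 1454 reads in the thymus (0.0816% of TRBV reads) and 9022 in the spleen (0.326%). TRBV26-TRBJ1-2 had 4749 (0.266%) and 1417 (0.0512%). Reads in the libraries did not rank alike. Over the 61 shared CDR3s Spearman's rho was -0.02, a description of clonotypes of 1 pair of libraries. The share of TRBV reads was higher in the thymus for 31 of them and higher in the spleen for 30. For 8 a single read was found in the thymus and 77 to 1818 in the spleen, and for 2 a single read in the spleen and 290 to 785 in the thymus. Transfer of reads between the libraries was not tested.

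**Figure D5:**
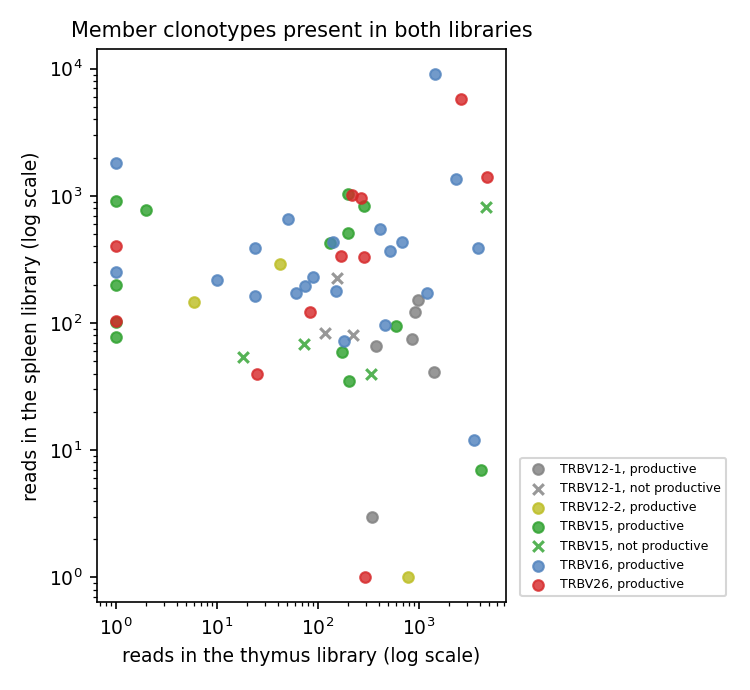
Each point is a CDR3 of the 5 genes found in both libraries, without the run, with its reads in the thymus (horizontal) and the spleen (vertical), both on log scales, coloured by the gene listed in the thymus. The points fill the plot without a diagonal, and 47 of 61 have at least 10 reads in both libraries.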

How the data were processed

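The members and lists were chosen with earlier results of these data known. The authors processed reads with MiXCR 2.1.12, per the paper's methods, against its gene library; filters are not given in the sources used here, and the submitters' processing notes name bcl2fastq. They deposited, per clonotype, a read count that is not normalized and the fraction of all reads of the library; only counts were used here. Shares were recomputed over TRBV reads or clonotypes. No read minimum was set. Clonotypes were compared by Fisher's exact test and Zelen's exact test, two-sided, each clonotype counted once as if independent. The per-gene test was tried on simulated data. Named clonotypes were those with the most reads of each gene, frame and library, and the 3 with the most summed reads among those shared. A part of them is given in the text. Positions and transcripts came from GENCODE M21 (GRCm38), older names from RefSeq (GRCm38.p6). The run was the most frequent 20-base word among CDR3s with a V score under 100. A floor of 3 reads was 0.000168% and 0.000108% of TRBV reads. Python 3.11.15, numpy 2.4.6, pandas 2.3.3, scipy 1.17.1, biopython 1.88 and matplotlib 3.10.9 were used.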

Additional observations from a re-analysis of the deposited data

How the results depend on the processing

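Odds ratios are given throughout, and the leaving out of run-carrying clonotypes, of V scores under 100, and of the run with TRBV16 were chosen after seeing the data. The productive share of the 5 genes in the thymus turned from below to above 1 with at least 2 reads (1.10), at least 10 reads (1.21), TRBV16 left out (1.15), run-carrying clonotypes left out (1.29), V scores of at least 100 (1.32) and the run and TRBV16 left out (1.11); exact p-values ran from 0.099 to 0.63 over 18 alternatives, and weighting by reads gave 0.626. In the spleen the call was lost with at least 2 reads (0.812), at least 10 reads (0.843) and TRBV16 left out (0.775). It was also lost with run-carrying clonotypes left out (0.927), V scores of at least 100 (0.910) and the run and TRBV16 left out (0.745). There 12 of 18 alternatives kept it, and all 18 stayed below 1. The 12 that kept it left out neither TRBV16 nor the run-carrying clonotypes as a set, and set no read minimum. The alternative limited to TRBJ genes repeated the main value. Weighting by reads gave 0.936 in the spleen. Of the reads weighted, 1 productive clonotype held 26.7% in the thymus (TRBV19) and 56.2% in the spleen (TRBV13-3). Weighting without these clonotypes was not done. The share of productive clonotypes in thymus against spleen passed the test with TRBV16 left out (1.36) and with the run left out too (1.38). That of non-productive ones turned with TRBV26 left out (1.03). The difference of the frame contrast between the libraries passed under 0 of 18 alternatives, and 9 to 13 gene calls were made against 13. The share of TRBV reads held by the 5 genes reached 17.2% in the thymus without shared clonotypes and 14.8% in the spleen without TRBV19, TRBV29, TRBV13-3 and TRBV17. No paired analysis was possible because each tissue has 1 library. Depth limits TRBV12-1, TRBV12-2 and TRBV26 most, with 23 to 53 clonotypes each.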
